A study of Mus musculus with 12 samples.

Results

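The mitochondrial genome transcripts are the 37 genes of the mitochondrial chromosome, taken as every gene whose symbol starts with mt- in GENCODE M21: 13 mRNAs, 2 ribosomal RNAs (rRNAs) and 22 transfer RNAs (tRNAs). All 37 were found by Ensembl identifier among the 55401 genes of the count files, and 24 of them passed the filter on low counts: the 13 mRNAs, the 2 rRNAs and 9 tRNAs. The other 13 tRNA genes held 0 to 7 counts in every library, and 9 of these 13 were at 0 in all 12 libraries. All 9 tRNAs that passed have a gap of 70 or more bases to the next same-strand gene, or no such gene, on a side. So do 2 of the 13. The part of this spacing in the counts was not tested, and a count of 0 was not taken as absence of the tRNA. The libraries are ribosomal-RNA-depleted, stranded total RNA from Neuro-2a cells, a mouse neuroblastoma line. Cells in a well received 1 µg of a GFP plasmid together with plasmids for artificial microRNAs in a miR30 backbone, and GFP-positive cells were sorted 48 hours later. The control group (miScramble) received a scramble microRNA, the Rbmx knockdown (miRbmx) a pool of 3 plasmids against mouse Rbmx, and the Rbmxl1 knockdown (miRbmxl1) a pool of 2 plasmids against mouse Rbmxl1. The labels give 1 µg of each pooled plasmid and 3 µg of microRNA plasmids per condition, which does not add up for the pool of 2. Each group had 4 libraries, numbered as biological replicates 1 to 4. The knockdown is transient and partial, the sort selects cells for GFP and not for the microRNA plasmid, and nothing in the labels says whether the replicates were separate cultures or days. The p-values below therefore measure the spread between these libraries.

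The mitochondrial genome is a compact circle without introns that encodes core subunits of the respiratory chain and the RNAs needed to translate them. Both strands are transcribed into long precursors, and excision of the tRNAs releases most mRNAs and rRNAs between them. Transcription of one strand yields both rRNAs, most tRNAs and all mRNAs except Nd6. Transcription of the other yields Nd6 and the remaining tRNAs. RBMX is a nuclear RNA-binding protein, and RBMXL1 is encoded by a retrocopy of Rbmx.

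On the reference strand (plus strand below) 28 of the 37 genes are annotated, and the minus strand holds mt-Nd6 and 8 tRNAs. The minus-strand sequences are shown because both mitochondrial genes called below, mt-Nd6 and mt-Ta, lie on this strand. They were read from the GENCODE M21 transcripts (GRCm38), 5′ to 3′ as transcribed. Capitals mark the start codon of mt-Nd6, its stop codon, and the anticodon of each tRNA. The mt-Nd6 gene lies at chrM:13552-14070 and encodes a membrane subunit of respiratory complex I. Its last 14 bases overlap the end of mt-Nd5 (chrM:11742-13565) on the opposite strand.
mt-Nd6, first 60 bases, chrM:14011-14070: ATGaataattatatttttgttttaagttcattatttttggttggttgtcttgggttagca
mt-Nd6, last 30 bases, chrM:13552-13581: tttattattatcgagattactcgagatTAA
mt-Ta, tRNA for alanine, chrM:5018-5086: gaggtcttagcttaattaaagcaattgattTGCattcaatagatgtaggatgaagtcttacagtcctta
mt-Tq, tRNA for glutamine, chrM:3772-3842: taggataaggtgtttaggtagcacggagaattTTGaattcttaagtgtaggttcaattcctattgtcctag
mt-Ty, tRNA for tyrosine, chrM:5260-5326: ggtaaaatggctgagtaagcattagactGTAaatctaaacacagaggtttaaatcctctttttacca
mt-Te, tRNA for glutamate, chrM:14071-14139: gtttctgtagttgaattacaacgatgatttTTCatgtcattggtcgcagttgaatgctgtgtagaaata
mt-Tp, tRNA for proline, chrM:15356-15422: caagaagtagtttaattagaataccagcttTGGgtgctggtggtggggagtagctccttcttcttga
These 5 tRNAs are the minus-strand tRNAs that passed the count filter. mt-Te is annotated directly upstream of mt-Nd6 on the same strand, with no base between them.

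Levels are counts-per-million values (CPM) of reads in genes after scaling of the libraries. Group values are means ± SD (n = 4). Reads in genes came to 43.1 to 52.2 M per library. At this depth 3 counts, the limit that a count of 0 allows, correspond to 0.0574 to 0.0696 CPM, which covers counting error only. Rbmx itself was at 57.6 to 73.3 CPM in scramble and 22.2 to 32.6 CPM in the Rbmx knockdown. In the Rbmxl1 knockdown Rbmx was at 81.9 to 90.0 CPM, above every scramble library. Rbmxl1 was at 31.3 to 36.7 CPM in scramble and 12.3 to 16.7 CPM in the Rbmxl1 knockdown. Markers of sympathoadrenal and neuroblastoma cells were present in every library, among them Hand2 at 331 to 446 CPM and Chga at 130 to 171 CPM. Of the 6 fibroblast and 6 immune markers none was above 1 CPM in every library, and their summed levels were 0.975 to 2.98 CPM and 0.453 to 1.48 CPM. Of the 4 endothelial markers Pecam1 was present in every library, at 4.62 to 7.82 CPM, and of the 6 astrocyte and oligodendrocyte markers Mbp was, at 10.3 to 18.7 CPM. The part of other cell types in the results below was not tested. Replicates 1 and 2 stood apart from replicates 3 and 4 in all groups, so values within each of these sets are given beside the results they touch. In these bulk samples fewer mitochondria, fewer genomes and less RNA per genome cannot be told apart, nor can a change in some cells and a change in all.

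The share of reads from mitochondrial genes overlapped between all groups. It was 1.13% to 1.28% of reads in genes in the scramble libraries (1.20% ± 0.0620, SD, n = 4), 0.972% to 1.46% in the Rbmx knockdown (1.18% ± 0.205) and 1.02% to 1.36% in the Rbmxl1 knockdown (1.23% ± 0.153). An exact permutation of the group labels within replicate numbers gave p = 0.866 (adjusted p = 0.972 over 10 quantities). Nearly all of the share was mRNA, at 1.18% ± 0.0600 of reads in scramble. The rRNAs, whose molecules normally far outnumber the mRNAs and which the depletion removes, held only 0.0104% ± 0.00386 of reads in scramble, 0.0115% ± 0.00208 in the Rbmx knockdown and 0.0141% ± 0.00723 in the Rbmxl1 knockdown (exact permutation p = 0.505). What is left of an rRNA after depletion is not a measure of its amount in the cell.

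The tRNA genes held 0.00967% ± 0.00112 of reads in scramble. In the Rbmx knockdown it was lower in 4 of 4 same-number pairs, at 0.00853% ± 0.00117, but the exact permutation test over the 3 groups did not pass (p = 0.0833, adjusted p = 0.417). Among the tRNAs mt-Tw (tryptophan) was highest, at 52.6 ± 5.39 CPM in scramble. mt-Tq followed at 20.1 ± 2.53 CPM and mt-Tp at 8.16 ± 1.68 CPM. mt-Tt (threonine), mt-Ta and mt-Ti (isoleucine) stood at 3.91 ± 1.14, 3.27 ± 0.542 and 3.09 ± 0.811 CPM. The strand setting of the counting is not given in the sources used here. For mt-Tw, only 66 bases touch no gene of either strand other than itself, while on its own strand the next 311 bases hold no gene. It held 1955 to 2954 counts per library. How many of these reads run past the tRNA was not tested. Counts of tRNA genes were not taken as levels of the mature tRNAs.

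The mRNAs differed by orders of magnitude in counted level. mt-Co1, the catalytic subunit of complex IV, held 50.3% of the mitochondrial mRNA reads in scramble, and mt-Cytb, the only complex III subunit encoded here, held 27.3%. mt-Co1 was at 5345, 5700, 5997 and 6364 CPM in scramble replicates 1 to 4, at 5057, 5900, 6770 and 7688 CPM in the Rbmx knockdown, and at 6633, 6141, 5125 and 7122 CPM in the Rbmxl1 knockdown. mt-Cytb was at 3566, 3619, 2711 and 3033 CPM in scramble, at 2738, 3315, 2645 and 3283 CPM in the Rbmx knockdown, and at 3426, 3565, 2634 and 3211 CPM in the Rbmxl1 knockdown. For both genes the ranges of the 3 groups overlap, and replicate 3 of the Rbmxl1 knockdown was the lowest library of its group.

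Per kilobase of annotated length, the scramble levels fell from mt-Co1 (3787 ± 281 CPM per kilobase) and mt-Cytb (2825 ± 382) to a middle group of 5 complex I mRNAs. These were mt-Nd1 (607 ± 182), mt-Nd5 (462 ± 89.7), mt-Nd4 (454 ± 134), mt-Nd2 (327 ± 129) and mt-Nd6 (316 ± 29.9). Neighbours within this group overlapped in their range over the scramble libraries: mt-Nd5 was above mt-Nd4 in 2 of 4 libraries, and mt-Nd2 above mt-Nd6 in 2 of 4. The other complex IV subunits mt-Co2 (78.7 ± 2.80) and mt-Co3 (49.7 ± 4.77) came next, without overlap with their neighbours. The complex V subunit mt-Atp6 (17.8 ± 3.53) and mt-Nd3 (15.6 ± 2.21) overlapped each other, as did mt-Atp8 (6.85 ± 4.48) and mt-Nd4l (5.45 ± 0.882). The order was the same in the Rbmx knockdown except that mt-Nd3 stood above mt-Atp6.

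This order cannot be read as the order of abundance, since most of the lowest mRNAs also lie almost whole in the nuclear genome. Nuclear copies of mitochondrial sequence make reads align in more than one place, and the deposited counts leave such reads out. Alignments counted as not unique, from any source, made up 20.6% to 26.5% of each library's total. Whether a read counts there more than once is not given in the sources used here. The part of them that comes from these copies was not measured. Of the 50-base words of mt-Co2, 635 of 635 also occur in an annotated nuclear transcript. The numbers are 734 of 735 for mt-Co3, 629 of 632 for mt-Atp6, 293 of 299 for mt-Nd3 and 245 of 248 for mt-Nd4l. They are lower for mt-Nd4 (827 of 1329), mt-Co1 (765 of 1496), mt-Nd5 (135 of 1775) and mt-Nd2 (81 of 989). No word of mt-Nd1, mt-Nd6, mt-Cytb or mt-Atp8 is shared. mt-Atp8 was low without sharing a word with an annotated transcript. It is 204 bases long and shares its last 43 bases with mt-Atp6, too few for a 50-base word. It lies between mt-Co2 and mt-Atp6, whose copies stand at chr1:24614885-24615565 and chr1:24613974-24614651. The bases between these copies hold no annotated copy, and whether they hold mt-Atp8 was not tested, since unannotated nuclear sequence was not searched.

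**Figure D1:**
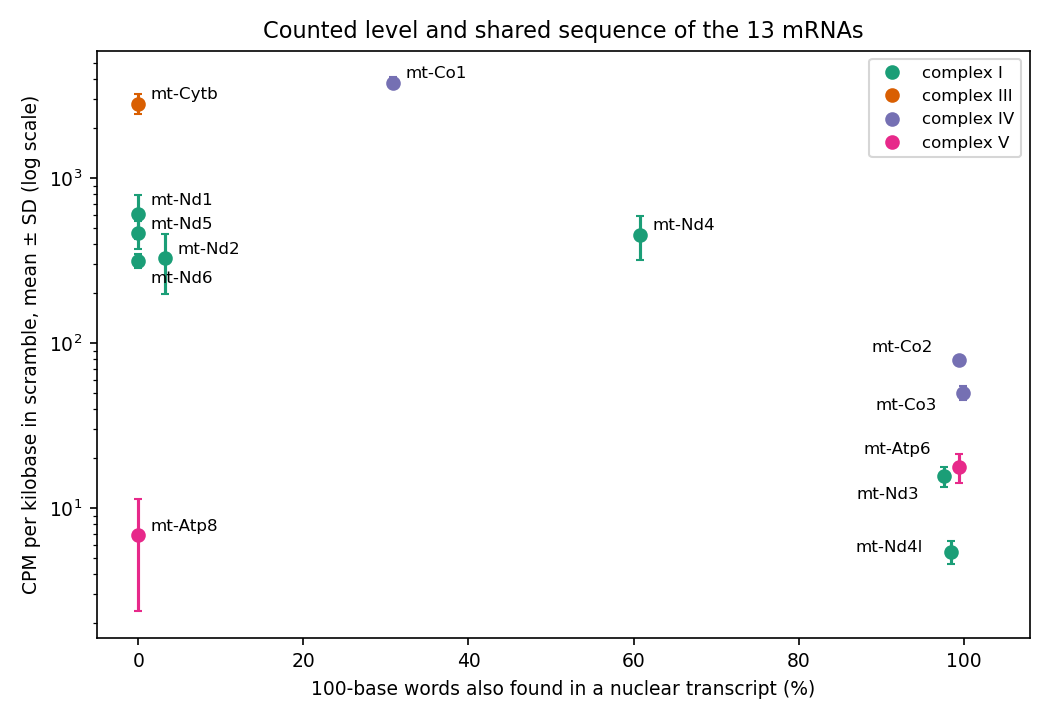
The plot sets the counted level of the 13 mRNAs in scramble (CPM per kilobase, mean ± SD of 4 libraries, log axis) against the percentage of their 100-base words that also occur in an annotated nuclear transcript, coloured by respiratory complex. The 5 mRNAs with nearly all words shared lie between 5.45 and 78.7 CPM per kilobase, and mt-Atp8, with no shared word, lies at 6.85.

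Most of the shared sequence lies in 1 stretch of chromosome 1, chr1:24611535-24616197 (GRCm38, minus strand), which holds 7 annotated copies. The copies of mt-Nd4 (Gm28439, 876 bases), mt-Co3 (Gm28437, 783 bases), mt-Co2 (Gm28661, 681 bases), mt-Atp6 (Gm10925, 678 bases) and mt-Nd4l (Gm10222, 294 bases) are identical to the mitochondrial gene over their whole length. The copy of mt-Nd3 (Gm28438) differs at 1 of 345 bases, T3C counted from the first base of mt-Nd3, shown in capitals to make plain how little separates the copies:
mt-Nd3, chrM:9459-9491: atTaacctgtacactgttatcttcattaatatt
Gm28438, chr1:24613087-24613119: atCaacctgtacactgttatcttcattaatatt
A read from mt-Nd3 that misses this base and lies within the copied stretch cannot be told from one of Gm28438. The copies collected counts of their own, 638 to 1709 for Gm10925 and 1147 to 1920 for Gm28661 per library. From which genome these reads come was not tested. None of the 12 annotated copies was called as changed in either knockdown (lowest adjusted p = 0.195 with edgeR), beside 8.35% of all genes tested for Rbmx and 4.46% for Rbmxl1.

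Counted per 1000 unshared 100-base words, the 7 mRNAs with at least 400 such words were ordered mt-Co1 (5851), mt-Cytb (3093), mt-Nd4 (1246), mt-Nd1 (677), mt-Nd5 (488), mt-Nd6 (390) and mt-Nd2 (373) in CPM. mt-Nd4 thus moved above mt-Nd1. On the per-kilobase scale complex IV held 44.1% ± 5.83 of the summed mRNA level in scramble, complex III 31.5% ± 2.14, complex I 24.2% ± 3.97 and complex V 0.271% ± 0.0692. The shares of the Rbmx knockdown were 48.4% ± 3.66, 30.1% ± 3.13, 21.3% ± 1.83 and 0.265% ± 0.0929. The Rbmxl1 knockdown gave 46.1% ± 3.66, 30.8% ± 1.27, 22.7% ± 3.29 and 0.343% ± 0.228. None of the 4 shares passed the exact permutation test over the groups (p = 0.167, 0.491, 0.444 and 0.884, in the same order). The complex IV share was higher in the Rbmx knockdown than in scramble in 4 of 4 same-number pairs, by 4.33 ± 2.82 percentage points (SD of the differences). Shared sequence affects these shares. In unshared words, scramble gave 48.6% ± 6.26 for complex IV, 25.5% ± 1.88 for complex III and 25.9% ± 4.67 for complex I. Complex III thus did not stand above complex I in scramble. The complex V share rests on mt-Atp6, with 3 unshared 100-base words, and mt-Atp8, and is not a measure of abundance.

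**Figure D2:**
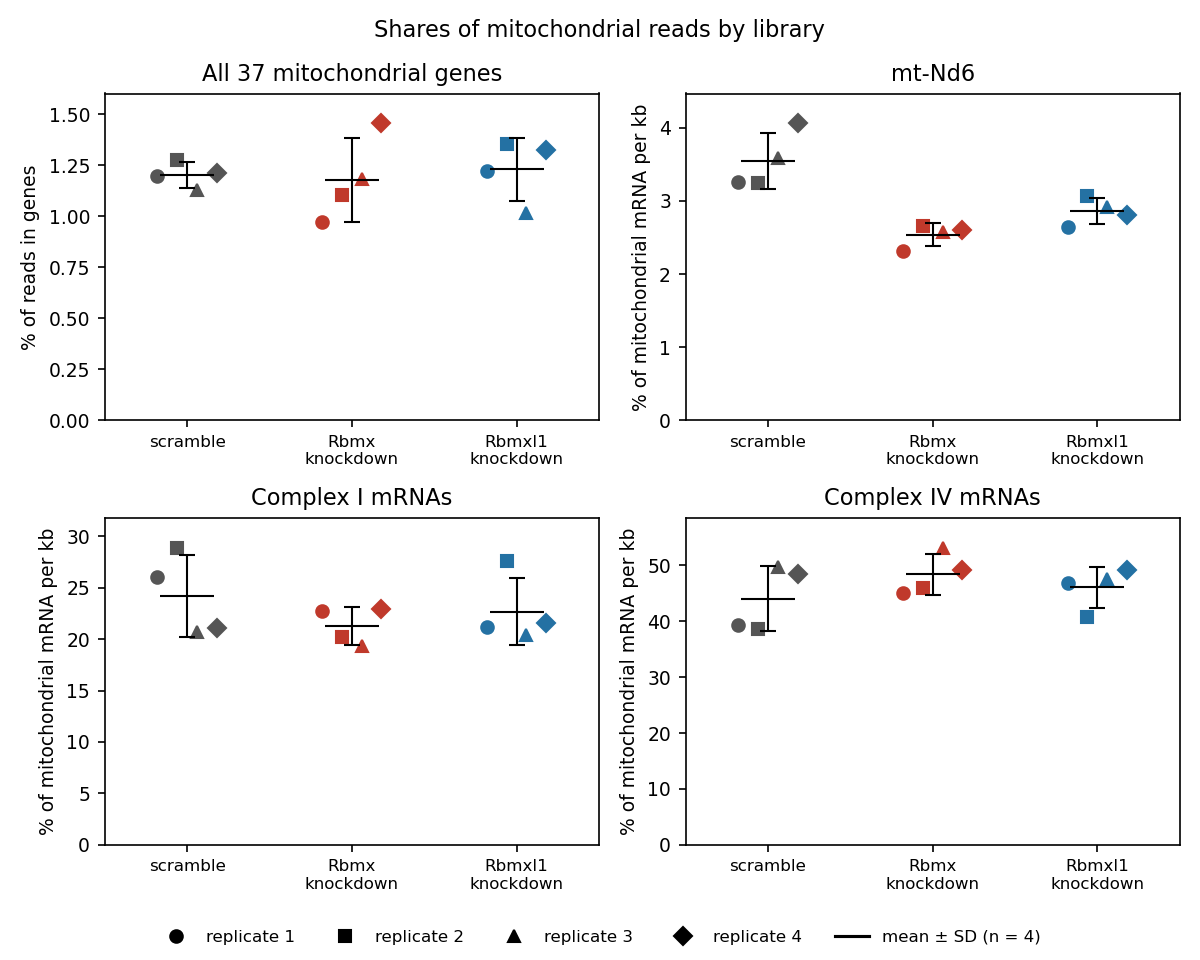
The 4 panels give, for each library, the share of reads in genes from all 37 mitochondrial genes and the shares of the mitochondrial mRNA level per kilobase held by mt-Nd6, complex I and complex IV. Symbols mark the replicate number and bars the mean ± SD of 4 libraries. The groups overlap in 3 panels, while in the mt-Nd6 panel the scramble libraries (3.24% to 4.06%) lie above all knockdown libraries (2.31% to 3.06%).

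mt-Nd6 was lower in the Rbmx knockdown than in scramble. mt-Nd6 was at 154, 166, 150 and 185 CPM in scramble replicates 1 to 4, at 90.4, 119, 113 and 141 CPM in the Rbmx knockdown, and at 130, 160, 110.0 and 141 CPM in the Rbmxl1 knockdown. All 4 Rbmx knockdown libraries lie below the lowest scramble library, whereas 1 Rbmxl1 knockdown library reaches into the scramble range. The log2 fold change in the Rbmx knockdown was −0.51 ± 0.08 (SE; edgeR quasi-likelihood test with the replicate number as block, adjusted p = 0.00522 over 17569 genes), so that mt-Nd6 fell by 29.7%. Without the block the change was −0.50 ± 0.14 and was not called (adjusted p = 0.266). Within replicates 1 and 2 it was −0.62 ± 0.09 (adjusted p = 0.124) and within replicates 3 and 4 −0.41 ± 0.06 (adjusted p = 6.9e-04). None of the other settings and left-out libraries tried ended the call.

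Of the 24 mitochondrial genes tested 2 were called in the Rbmx knockdown, both lower, beside 8.35% of all genes tested in either direction and 4.19% lower. The 2 of 24 are no larger a share than that of all genes called in either direction, though larger than that called lower. At an unadjusted p under 0.05 there were 5 of 24, beside 24.9% of all genes. The second is mt-Ta, which was at 3.40, 2.54, 3.29 and 3.84 CPM in scramble, at 1.77, 1.81, 2.57 and 2.39 CPM in the Rbmx knockdown and at 3.24, 2.27, 4.14 and 3.07 CPM in the Rbmxl1 knockdown. The highest Rbmx knockdown library reaches just into the scramble range. Its log2 fold change was −0.61 ± 0.17 (edgeR with the block, adjusted p = 0.0331). This call rests on 81 to 197 counts per library in these groups and is weak: leaving out any 1 of the 8 libraries compared ended it, with adjusted p from 0.0536 to 0.116, as did the fit without the block (0.333) and each replicate set alone (0.202 and 0.127). The log2 fold change stayed between −0.51 and −0.72 over these libraries, was −0.61 without the block, and was −0.70 and −0.53 in the replicate sets.

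The other 4 minus-strand genes tested did not pass the edgeR test over all libraries in the Rbmx knockdown. mt-Ty was at 1.26 to 1.54 CPM in scramble and 0.589 to 1.12 CPM in the Rbmx knockdown, with no overlap between the groups. Its log2 fold change was −0.72 ± 0.26 (edgeR adjusted p = 0.101). Within replicates 1 and 2 it was −0.31 ± 0.32 (edgeR adjusted p = 0.632). Within replicates 3 and 4 mt-Ty was called lower, at −1.21 ± 0.32 (0.0227). Of the 24 genes 2, mt-Nd6 and mt-Ty, lay wholly below scramble, beside 3.85% of all genes tested. mt-Tq, at 16.9 to 22.7 CPM in scramble and 10.8 to 19.2 CPM in the Rbmx knockdown, gave −0.33 ± 0.11 (adjusted p = 0.0624; DESeq2 0.0252). mt-Tp gave −0.33 ± 0.15 (edgeR adjusted p = 0.194) and mt-Te −0.47 ± 0.31 (0.370). The change of mt-Te turned between the replicate sets, from 0.17 ± 0.42 within replicates 1 and 2 to −0.98 ± 0.37 within replicates 3 and 4.

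Set out by strand, all 6 minus-strand genes tested had a negative log2 fold change in the Rbmx knockdown, with a median of −0.49 (range −0.72 to −0.33). The 18 plus-strand genes had a median of −0.07 (−0.33 to 0.32), with 7 above and 11 below 0. Over all 17569 genes the numbers above and below 0 were 8784 and 8785. The strands overlapped within replicates 1 and 2. There the minus-strand genes ran from −0.70 (mt-Ta) to 0.17 (mt-Te) and the plus-strand genes from −0.74 (mt-Nd2) to 0.54 (mt-Nd3). Within replicates 3 and 4 the minus-strand genes ran from −1.21 (mt-Ty) to −0.28 (mt-Tq) and the plus-strand genes from −0.33 (mt-Ti) to 0.74 (mt-Atp8). Strand and RNA class overlap in this grouping: 5 of the 6 minus-strand genes are tRNAs, and the 4 plus-strand tRNAs tested were also all negative, with a median of −0.16 (−0.33 to −0.02). The grouping by strand was made after the values were seen, and the minus-strand genes share their precursor and the same libraries, so the 6 values are not independent.

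**Figure D3:**
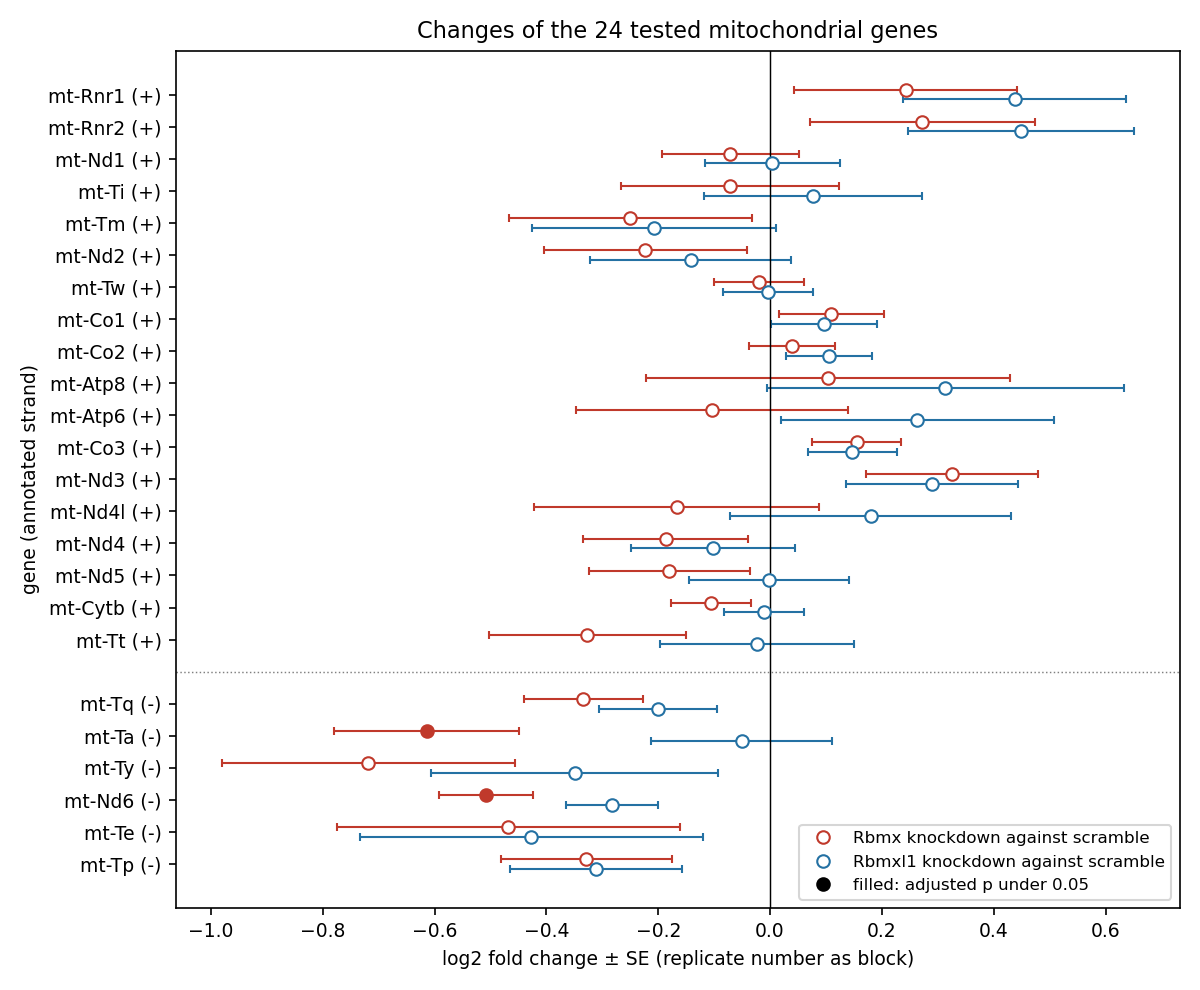
Log2 fold changes ± SE of the 24 tested mitochondrial genes against scramble, from the edgeR fit with the replicate number as block, in genome order within each strand; filled points have an adjusted p under 0.05. All 6 minus-strand genes lie left of 0 in both knockdowns, and only mt-Nd6 (−0.51) and mt-Ta (−0.61) in the Rbmx knockdown are filled.

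In the Rbmxl1 knockdown none of the 24 mitochondrial genes was called with edgeR, beside 4.46% of all genes tested. At an unadjusted p under 0.05 there were 3, mt-Nd6 and the 2 rRNAs, beside 19.8% of all genes, and DESeq2 called 1. That one was mt-Nd6, below scramble in 4 of 4 same-number pairs, with a log2 fold change of −0.28 ± 0.08 (edgeR adjusted p = 0.0642; DESeq2 adjusted p = 0.0171). The change differed between the replicate sets: −0.14 ± 0.09 within replicates 1 and 2 (edgeR adjusted p = 0.553) and −0.43 ± 0.06 within replicates 3 and 4 (6.0e-04). Single libraries moved it across the threshold. mt-Nd6 was called without Rbmxl1 knockdown replicate 2, its highest library, at −0.35 (edgeR adjusted p = 0.0218). It was also called without Rbmx knockdown replicate 1, a library of neither group compared, at −0.28 (0.0482). Without Rbmxl1 knockdown replicates 3 or 4 it gave −0.21 and −0.23 (0.228 and 0.213). Here too all 6 minus-strand genes had a negative log2 fold change, with a median of −0.30 (−0.43 to −0.05), while 11 of the 18 plus-strand genes were above 0 (median 0.09). The smallest of the 6 was that of mt-Ta (−0.05 ± 0.16). The sign of mt-Te did not hold in both replicate sets: 0.13 ± 0.42 within replicates 1 and 2 and −0.85 ± 0.37 within replicates 3 and 4. Both knockdowns are compared with the same scramble libraries, so their changes are not independent of each other.

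The share of mt-Nd6 in the mitochondrial mRNA level per kilobase removes differences in the total between libraries. It was 3.26%, 3.24%, 3.59% and 4.06% in scramble replicates 1 to 4, 2.31%, 2.66%, 2.58% and 2.61% in the Rbmx knockdown, and 2.64%, 3.06%, 2.92% and 2.80% in the Rbmxl1 knockdown. Neither knockdown overlaps scramble, and the Rbmx knockdown lies below the Rbmxl1 knockdown in each of the 4 same-number pairs. The means were 3.54% ± 0.384, 2.54% ± 0.157 and 2.86% ± 0.179 (SD, n = 4). The exact permutation of group labels within replicate numbers gave the smallest p its 1296 arrangements allow, 0.00463 (adjusted p = 0.0463 over 10 quantities). Over the 4 same-number pairs of any 2 groups a two-sided exact sign-flip test cannot go below 0.125, and it gave 0.125 for each of the 3 pairs of groups. Leaving out a replicate number gave an exact permutation p of 0.0278 each time, the smallest that 3 numbers allow, which does not pass the adjustment (0.278).

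The denominator of this share is mostly mt-Co1 and mt-Cytb. Against mt-Cytb alone, which shares no word with a nuclear copy, mt-Nd6 per kilobase was at 9.55 to 13.4 per 100 in scramble and 7.28 to 9.48 per 100 in the Rbmx knockdown, still without overlap. In the Rbmxl1 knockdown it was at 8.34, 9.90, 9.21 and 9.66 per 100 in replicates 1 to 4, beside 9.55, 10.1, 12.2 and 13.4 in scramble. These ranges overlap, though each knockdown library lies below the scramble library of its number. Against mt-Nd5, its neighbour on the opposite strand, the ranges overlap: 55.8 to 91.4 per 100 in scramble, 47.7 to 67.1 in the Rbmx knockdown and 50.5 to 61.4 in the Rbmxl1 knockdown.

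**Figure D4:**
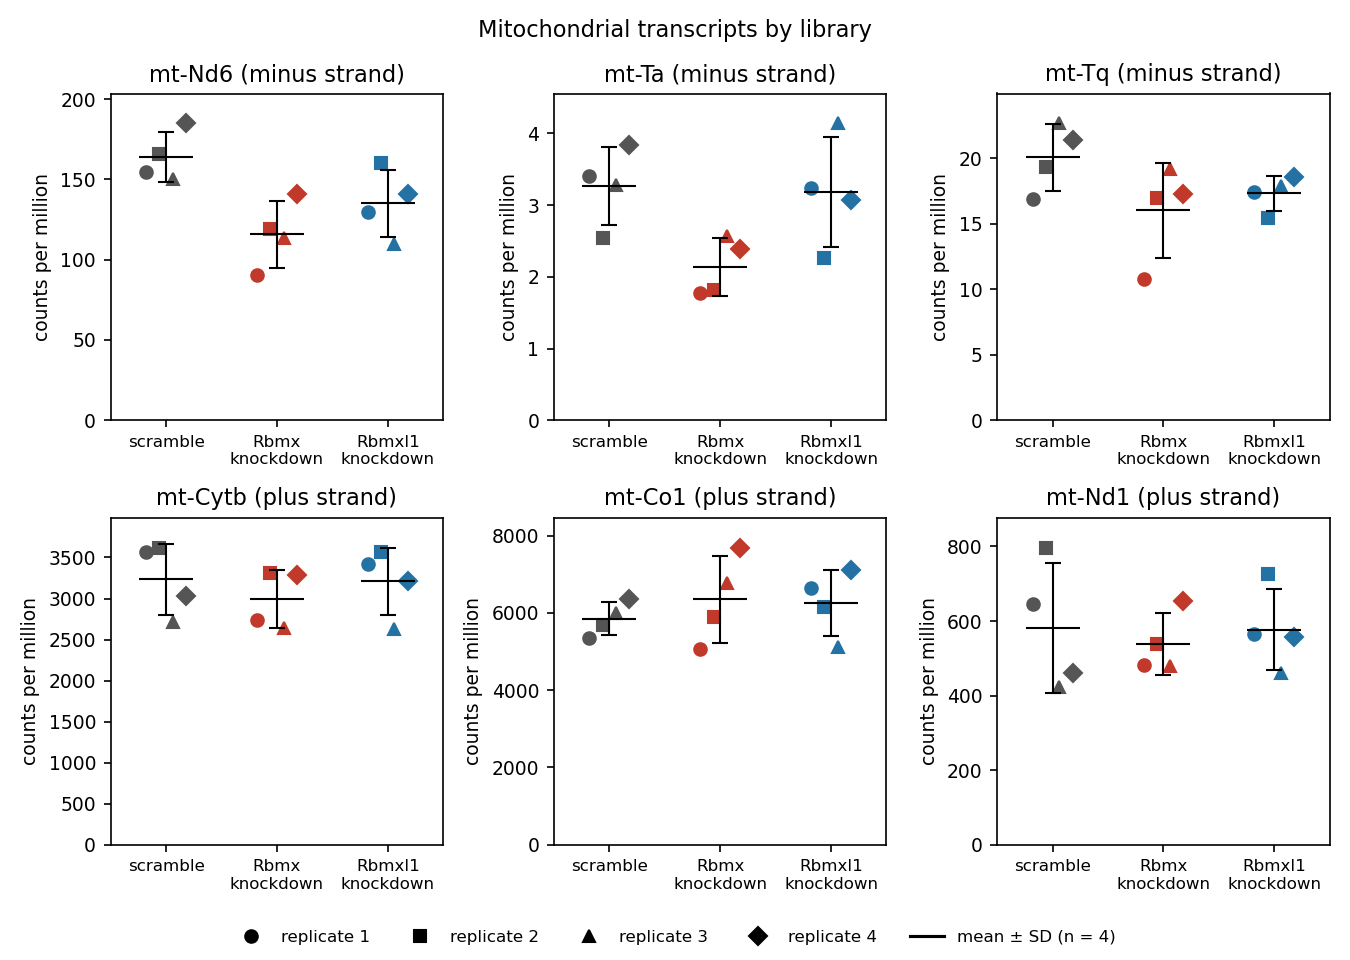
CPM of 3 minus-strand genes (mt-Nd6, mt-Ta, mt-Tq) and 3 plus-strand genes (mt-Cytb, mt-Co1, mt-Nd1) in each library, with symbols for the replicate number and bars for the mean ± SD of 4 libraries. For mt-Nd6 the Rbmx knockdown libraries (90.4 to 141 CPM) lie below every scramble library (150 to 185 CPM), and for mt-Nd1 scramble replicates 1 and 2 lie above replicates 3 and 4.

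The longer plus-strand complex I mRNAs lay on opposite sides of 0 in the replicate sets of the Rbmx knockdown. mt-Nd1 was at 647, 797, 422 and 460 CPM in scramble, at 483, 538, 478 and 655 CPM in the Rbmx knockdown and at 566, 726, 461 and 556 CPM in the Rbmxl1 knockdown. Scramble replicates 1 and 2 were high and replicates 3 and 4 low, a spread that the Rbmx knockdown libraries did not follow. Over all libraries the log2 fold change of mt-Nd1 in the Rbmx knockdown was −0.07 ± 0.12 (edgeR adjusted p = 0.766). Within replicates 1 and 2 it was −0.48 ± 0.09 (adjusted p = 0.124), and within replicates 3 and 4 mt-Nd1 was called higher, at 0.34 ± 0.07 (0.00639). mt-Nd2, mt-Nd4 and mt-Nd5 gave −0.74 ± 0.18, −0.62 ± 0.12 and −0.58 ± 0.14 within replicates 1 and 2, and 0.25 ± 0.10, 0.22 ± 0.09 and 0.20 ± 0.10 within replicates 3 and 4, none of them called. mt-Nd6 was negative in both sets.

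The median over the 13 mRNAs was −0.10 in the Rbmx knockdown, −0.46 within replicates 1 and 2 alone and 0.18 within replicates 3 and 4, and 0.10 in the Rbmxl1 knockdown, with medians near 0 over all genes tested. mt-Co1 gave 0.11 ± 0.09 and 0.10 ± 0.09 in the 2 knockdowns (adjusted p = 0.513 and 0.622), and mt-Cytb −0.11 ± 0.07 and −0.01 ± 0.07 (0.393 and 0.956). mt-Nd3, at 0.32 ± 0.15 in the Rbmx knockdown (adjusted p = 0.203), gave −0.06 once the counts of its nuclear copy were added.

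The rRNAs varied widely between libraries. mt-Rnr1, the small-subunit rRNA, was at 100.5, 106, 51.1 and 49.9 CPM in scramble, at 88.4, 106, 61.1 and 88.0 CPM in the Rbmx knockdown and at 181, 84.4, 95.3 and 56.3 CPM in the Rbmxl1 knockdown. Replicate 1 of the Rbmxl1 knockdown was the highest library, and replicates 3 and 4 of scramble were the lowest. mt-Rnr2, the large-subunit rRNA, followed it: the ratio of both per kilobase was 4.74 ± 0.472 in scramble, 4.66 ± 0.450 and 4.74 ± 0.538 in the knockdowns of Rbmx and Rbmxl1 (exact permutation p = 0.972). The log2 fold changes of mt-Rnr1 and mt-Rnr2 were 0.24 ± 0.20 and 0.27 ± 0.20 in the Rbmx knockdown and 0.44 ± 0.20 and 0.45 ± 0.20 in the Rbmxl1 knockdown (edgeR adjusted p from 0.229 to 0.491). Within replicates 3 and 4 alone both were called higher in the Rbmx knockdown, at 0.56 ± 0.17 and 0.54 ± 0.13 (0.0380 and 0.0150). Without the filter on low counts both were called higher in both knockdowns, at 0.25 ± 0.07 and 0.28 ± 0.08 for Rbmx and 0.43 ± 0.07 and 0.45 ± 0.08 for Rbmxl1. The changes stayed close to those with the filter, where each SE was 0.20. These calls thus rest on the smaller SE and not on a larger change. The part of the depletion step in these values was not tested.

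Compared directly, the knockdowns gave no call in a mitochondrial gene: 0 of 24 passed, beside 0.0114% of all genes tested with edgeR, and DESeq2 called none of the 24. At an unadjusted p under 0.05 there were 2, both lower in the Rbmx knockdown, beside 5.7% of all genes. mt-Ta gave −0.56 ± 0.17 and mt-Nd6 −0.23 ± 0.08 (edgeR adjusted p = 0.859 for both). A difference between the knockdowns is therefore not shown for either gene.

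Nuclear genes that act on the mitochondrial genome and its RNA were mostly not called. They cover transcription (10 genes), replication and copy number of the genome (11), RNA processing and modification (16) and RNA stability and decay (16). Of 53 such genes tested, 1 was higher and 1 lower in the Rbmx knockdown, with a median log2 fold change of −0.03, beside 4.16% of all genes called higher and 4.19% lower. Tfb2m, the transcription factor that opens mitochondrial promoters on both strands, was lower, at 26.9 ± 0.674 CPM in scramble and 21.4 ± 1.76 CPM in the Rbmx knockdown (−0.33 ± 0.08, edgeR adjusted p = 0.0182). In the Rbmxl1 knockdown it gave −0.27 ± 0.08 (adjusted p = 0.0625). Hsd17b10, a subunit of the enzyme that cuts the 5′ ends of mitochondrial tRNAs, was higher in the Rbmx knockdown, from 38.5 ± 3.88 to 47.0 ± 1.73 CPM (0.29 ± 0.06, adjusted p = 0.0152). Neither call held without the block (0.274 and 0.266). In the Rbmxl1 knockdown 1 of the 53 was called higher, beside 2.25% of all genes, and none lower, with a median of 0.03. It was Mterf1b, of the mitochondrial transcription termination factor family (1.32 ± 0.34, edgeR adjusted p = 0.0410). Mouse has a close paralog, Mterf1a, so reads of this gene may be split or left out. Mterf1b was chosen for naming after its values were seen, and it was not called without the block (0.362). Any part of these genes in the change of mt-Nd6 was not tested.

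Nuclear genes for subunits of the same complexes were largely above 0 in the Rbmx knockdown. Of 44 tested, 16 were called higher in the Rbmx knockdown, beside 4.16% of all genes, and none lower, with a median log2 fold change of 0.22 and 43 of 44 above 0. By complex the calls were 2 of 13 for complex I, 2 of 9 for complex III, 5 of 10 for complex IV and 7 of 12 for complex V. Atp5b, the catalytic subunit of complex V, rose from 1953 ± 167 to 2415 ± 178 CPM (0.31 ± 0.07, edgeR adjusted p = 0.0151), Ndufb8 of complex I from 33.5 ± 3.57 to 41.4 ± 6.66 CPM (0.30 ± 0.07, 0.0159) and Cyc1 of complex III from 256 ± 34.2 to 303 ± 48.3 CPM (0.24 ± 0.05, 0.0163). Also among the called complex V subunits were Atp5g1 at 0.28 ± 0.06 (0.0149), Atp5d at 0.28 ± 0.06 (0.0154) and Atp5o at 0.26 ± 0.06 (0.0156). In the Rbmxl1 knockdown 1 of the 44 was called, Atp5g1 (0.25 ± 0.06, adjusted p = 0.0336), and the median was 0.12, beside 2.25% of all genes called higher. Without the block none of the 44 was called in either knockdown. Within replicates 1 and 2 only 4 of all genes tested were called for Rbmx, so most of the 16 calls did not stand there. Values of the 44 within the replicate sets are not reported here. Over all replicates no mitochondrial mRNA of these complexes was called higher in either knockdown, and within replicates 3 and 4 mt-Nd1 was, in the Rbmx knockdown.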

How the data were processed

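The authors deposited 1 table of raw read counts per library, whole numbers per Ensembl gene. The submitters' processing notes name mm10, STAR 2.5.3a, HTSeq 0.6.1p1, R 3.3.2 and DESeq2 1.16.1. The annotation release, strand setting, overlap mode and read length are not given in the sources used here. Rows of the deposited count tables that name no gene (52.3% to 57.4% of each total) were left out. Positions, symbols and sequences came from GENCODE M21 (55141 of 55401 identifiers matched). No genome sequence was used here. Shared sequence was found by exact 50-base and 100-base words against annotated transcripts.

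Counts were filtered with filterByExpr (minimum count 10), scaled by TMM and fitted with edgeR 4.0.16 in R 4.3.3 with 1 mean per group and the replicate number as block, over all 12 libraries. Calls need a Benjamini-Hochberg adjusted p under 0.05 over all 17569 genes. DESeq2 1.42.0, fits without the block, other filters and scalings, left-out libraries and both replicate sets were alternatives. Same-number libraries of different groups deviated together across genes (r from 0.20 to 0.52 in 12 pairs), so the numbers were treated as pairing the samples. That rests on the values, since the labels do not say what a number stands for. Correlations were also positive between numbers 1 and 2 and between 3 and 4 (0.10 to 0.43), and negative across these sets. On simulated counts for the Rbmx comparison (17569 genes, 200 changed), the fit with the block recovered 49.5% of 1.5-fold and 77.0% of 2-fold changes, with 8.33% and 7.78% of calls false. The fit without it recovered 14.0% and 54.5%, with no false call. These counts were drawn from the fit with the block, with the same replicate effects in every group. The setting thus favours the block by design, and the share of false calls in the deposited data was not measured.

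Named were all mRNAs, both rRNAs, the 5 tRNAs highest in CPM, tRNAs called in a comparison, and the 8 called nuclear genes with the lowest adjusted p. mt-Ty, mt-Te and Mterf1b were named after their values were seen. Members and lists were chosen with earlier results of these data known. The values of some cell type markers are not reported here.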

Additional observations from a re-analysis of the deposited data

Results flagged for a closer look

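Of 93 sets of 4 libraries examined for a single library far from the rest, 5 held one, and chance alone gives about 1 in 20. In replicate 2 of the Rbmxl1 knockdown mt-Atp6 was at 35.9 CPM, beside 8.26 to 10.8 CPM in the other 3 libraries. Its nuclear copy Gm10925, identical in sequence, had its highest count, 1709, in the same library. mt-Nd4l was at 3.02 CPM in that library, beside 1.38 to 1.55 CPM. The shares of complex I and complex V in the mitochondrial mRNA level per kilobase were likewise highest there, at 27.6% (others 20.4% to 21.6%) and 0.683% (others 0.211% to 0.263%). In replicate 4 of the Rbmx knockdown mt-Nd5 was at 1024 CPM, beside 623 to 666 CPM in the other 3.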

How the results depend on the processing

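The replicate block decides the counts of calls. Without it 1 gene was called in each knockdown against scramble in place of 1467 and 783, and 0 mitochondrial genes in place of 2 in the Rbmx knockdown. Leaving out 1 library or replicate number gave 146 to 1904 genes for Rbmx, 100 to 1032 for Rbmxl1 and 2 to 7 for the direct comparison, with 1 to 3, 0 to 1 and 0 mitochondrial genes among them. Within replicates 1 and 2 the calls were 4, 30 and 4, with 0 mitochondrial genes for Rbmx, where the median of the mRNAs was −0.46 (−0.48 in the direct comparison), against 0.18 (0.11) within replicates 3 and 4. Within replicates 3 and 4, 5 mitochondrial genes were called for Rbmx (mt-Nd6, mt-Ty, mt-Nd1, mt-Rnr1 and mt-Rnr2) and 1 for Rbmxl1 (mt-Nd6), among 1818 and 992 of 17950 genes, and 18 genes in the direct comparison. There mt-Nd1 turned from −0.07 to 0.34. DESeq2 called 1279 genes for Rbmxl1 (1 mitochondrial) and 10 in the direct comparison. Without the low-count filter 2085 of 31777 genes were called for Rbmx, 1243 for Rbmxl1 and 86 in the direct comparison. Of 28 mitochondrial genes then tested 6 were called for Rbmx (mt-Rnr1 and mt-Rnr2 higher, mt-Nd2, mt-Nd6, mt-Ta and mt-Tq lower) and 3 for Rbmxl1 (both rRNAs higher, mt-Nd6 lower). Without a replicate number, the exact test of the mt-Nd6 share gave 0.0278. With reads outside genes in the denominator, the tRNA share in the Rbmx knockdown gave a log2 ratio of −0.24 in place of −0.18. The causes of these shifts were not tested.

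RLE size factors and scaling without mitochondrial genes left the calls of mt-Nd6 and mt-Ta in the Rbmx knockdown as they were. Adding the nuclear copies to the counts, and lengths in unshared words, were chosen after the data were seen. They left the calls of mt-Nd6 and mt-Ta and the mt-Nd6 share on the same side of the threshold, and complex V had too few unshared words for a value. The planned length from a genome sequence was not run. Depth limits the tRNAs, down to 20 to 71 counts per library for mt-Te, and shared sequence limits mt-Co2, mt-Co3, mt-Atp6, mt-Nd3 and mt-Nd4l.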
